A study of Homo sapiens with 6 samples.

Results

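The nuclear factor NRF2, its inhibitor KEAP1 and 7 antioxidant genes that NRF2 is known to induce were followed in T47D-TR and T47D cells by poly(A) RNA sequencing. The members were taken by gene symbol from the deposited count table, and all 9 were found among its 20503 genes. They are NFE2L2, which encodes NRF2, KEAP1, NQO1, GCLC, GCLM, TXNRD1, SRXN1, HMOX1 and SLC7A11. T47D-TR is a tamoxifen-resistant subline of T47D kept in medium with 1 µM 4-hydroxytamoxifen, the active metabolite of tamoxifen, and was sequenced in 3 libraries. T47D, the parental human breast cancer line that the labels call ER-positive, was grown without mention of the drug and was also sequenced in 3 libraries. Both cultures were kept in DMEM with fetal bovine serum. Resistance and the drug came together in the design and cannot be told apart, and the sources used here do not say whether the subline is 1 clone. The labels do not state whether replicates were grown as separate cultures, and p-values therefore cover only library-to-library spread, which may be technical.

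NRF2 is a leucine zipper transcription factor that pairs with small MAF proteins and binds antioxidant response elements in front of genes for glutathione synthesis, thioredoxin recycling and quinone detoxification. KEAP1 is the adaptor through which a cullin-3 ubiquitin ligase marks NRF2 for destruction, and oxidants or electrophiles that modify KEAP1 cysteines let NRF2 accumulate. The repressor BACH1 competes for the same elements, best known at the haem oxygenase gene HMOX1. In many carcinomas the pathway is active without a stress signal. Because NRF2 is controlled largely as a protein, its RNA level and its activity are separate quantities, and these libraries measure RNA only.

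The libraries of T47D-TR held 17199315 to 19867230 counts and those of T47D held 18315735 to 19305594. At that depth 3 counts in a library stand for 0.151 to 0.174 CPM, the count scaled to library size. Libraries of T47D-TR varied more, with a biological coefficient of variation of 0.0799, than those of T47D, with 0.0272. Against the label, ESR1, the oestrogen receptor alpha gene, had 2, 4 and 3 counts in T47D-TR and 3, 0 and 2 in T47D. The 12 luminal epithelial markers found in the table, with KRT8 and KRT18 among them, summed to 2594 to 3008 CPM in T47D-TR and 2165 to 2248 CPM in T47D. Most of that sum was KRT8 and KRT18, with means of 1580 and 928 CPM in T47D-TR. Of the 11 luminal markers tested, 8 were called higher in T47D-TR and 3 lower. The lower ones were EPCAM, GATA3 and ERBB3, with log2 fold changes of -1.39, -0.97 and -0.72. The 8 basal or mesenchymal markers, VIM and CD44 among them, summed to 2352 to 2510 CPM in T47D-TR and 1814 to 1850 CPM in T47D. Within that list VIM and CD44 rose, with log2 fold changes of 0.75 and 0.56, AXL fell to 117 CPM in T47D-TR, against 195 CPM in T47D (-0.74), and CAV1 was not called (-0.07). Fibroblast markers summed to 20.1 to 26.3 CPM in T47D-TR and 36.9 to 40.2 CPM in T47D, and blood and endothelial markers to 79.1 to 100.1 CPM in T47D-TR and 22.7 to 26.3 CPM in T47D. The lower fibroblast sum came mainly from LUM, with 6, 3 and 5 counts in T47D-TR against 269, 232 and 286 in T47D. COL1A2 (0, 0 and 22 counts), COL3A1 (3, 1 and 37) and DCN (4, 0 and 19) had most of their T47D-TR counts in replicate 3, against 0 or 1 count per T47D library. The higher blood and endothelial sum came mainly from CD68 and PECAM1. CD68 had 1086, 1236 and 1257 counts in T47D-TR against 466, 481 and 402 in T47D. For PECAM1 the counts were 453, 610 and 459 in T47D-TR against 13, 13 and 12 in T47D. PTPRC had 0 to 2 counts per library and VWF 0 to 4, while CD3E had no entry. The part of these differences in the results below was not tested.

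The letters of the antioxidant response element were looked for in front of the members, since such elements are the step between NRF2 and its targets. RefSeq start sites on GRCh38.p14 gave 10 windows of 250 bases before a start for 7 of the members. HMOX1 and SLC7A11 had no window and were not searched. The motif TGACNNNGC, the core of the element, was searched on both strands and no other motif was. It stood in 4 of the 10 windows, belonging to GCLM, TXNRD1 and KEAP1, and in 10.9% of the 35116 windows of all genes. The stretches around the 5 matches are shown because they line up the elements of different genes, with the 9 motif letters in capitals and each stretch turned so that the motif reads forward.
GCLM, chr1:93909446-93909474, plus strand: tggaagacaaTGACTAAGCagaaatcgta
TXNRD1, second window, chr12:104286920-104286948, minus strand: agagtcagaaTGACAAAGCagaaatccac
KEAP1, second window, nearer the start, chr19:10502784-10502812, plus strand: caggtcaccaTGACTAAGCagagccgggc
KEAP1, second window, farther from the start, chr19:10502807-10502835, minus strand: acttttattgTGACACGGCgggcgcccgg
TXNRD1, first window, chr12:104215670-104215698, plus strand: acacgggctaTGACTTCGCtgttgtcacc
The GCLM match and the nearer KEAP1 match have the same 9 letters, and 17 of their 29 bases are identical. GCLM and the second TXNRD1 window agree in 19 of 29 bases, among them the 7 that follow the motif. The second TXNRD1 match and the nearer KEAP1 match share 17, and the other 7 of the 10 pairs share 9 to 13, of which 6 are fixed by the motif in every pair. The GCLM match begins 34 bases before the RefSeq start and the second TXNRD1 match 102 bases before it. A match is a run of letters and not a measured binding site, and the windows of NFE2L2, NQO1, GCLC and SRXN1 lack these letters only within the 250 bases searched.

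The GCLM window is given whole, as that of the NRF2 target with a match whose level differed most between the groups. It runs along the minus strand at chr1:93909431-93909680, and the capitals mark the match as it lies on the gene's own strand.
GCLM: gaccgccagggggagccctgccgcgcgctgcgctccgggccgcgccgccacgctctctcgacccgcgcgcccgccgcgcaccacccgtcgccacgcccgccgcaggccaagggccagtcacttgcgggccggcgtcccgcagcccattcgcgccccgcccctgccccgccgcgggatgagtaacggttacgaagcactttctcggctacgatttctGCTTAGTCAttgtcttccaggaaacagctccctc

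Of the 9 members, 6 fell in T47D-TR, 2 rose and 1 was not called. The genes that fell were the targets NQO1, GCLC, GCLM, TXNRD1, SRXN1 and HMOX1, and those that rose were the regulators NFE2L2 and KEAP1. KEAP1 was close to the limit of detection and passed the filter on low counts only through its T47D-TR libraries. A gene was called at an edgeR quasi-likelihood p under 0.05 after Benjamini-Hochberg adjustment over the 15961 genes tested. Across those genes 63.0% were called, 30.5% as lower and 32.5% as higher, with a median log2 fold change of 0.00, so a call alone is common in this comparison. The median of the 9 members was -0.60. The libraries of the groups did not overlap for 8 of the 9, KEAP1 with its low counts among them, against 68.3% of all tested genes. In bulk RNA, fewer cells that express a gene and less of its RNA per cell cannot be told apart.

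**Figure D1:**
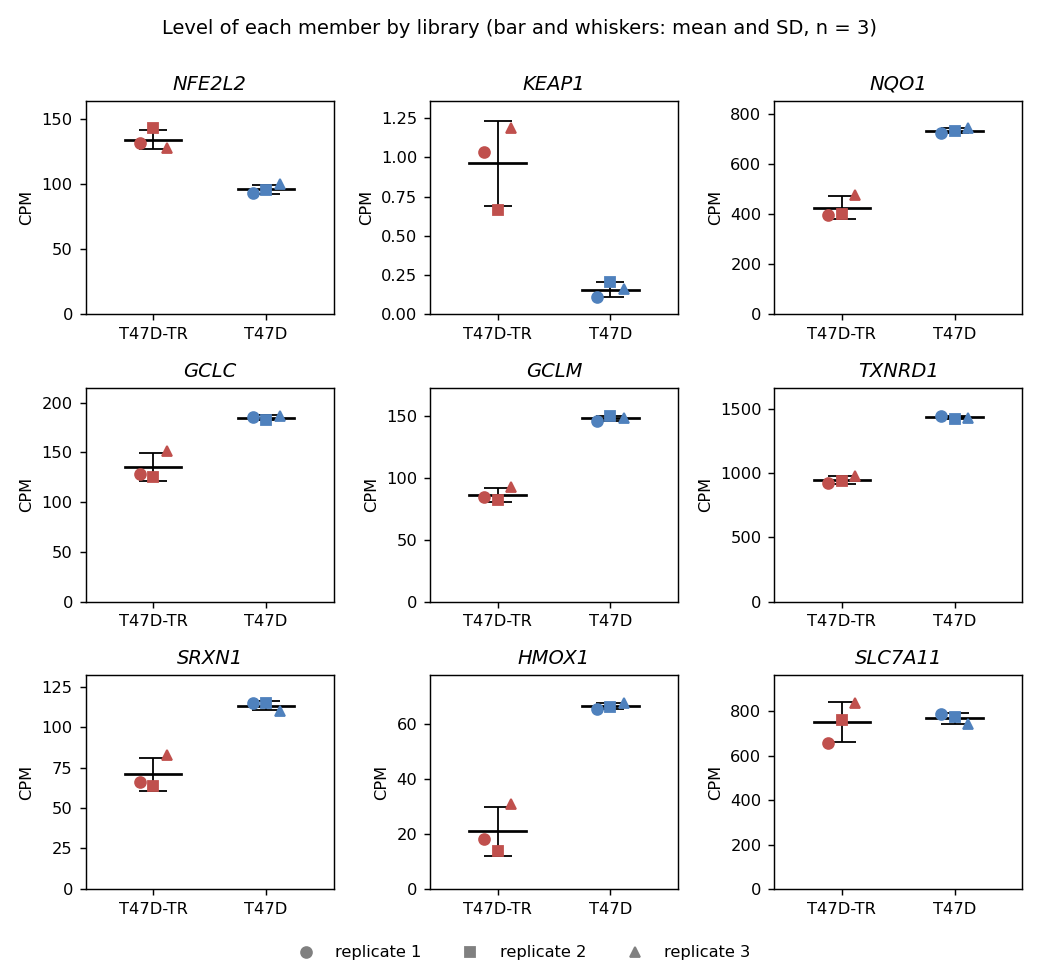
CPM of each member in the 3 T47D-TR libraries (red) and the 3 T47D libraries (blue), with a symbol per replicate and the mean and SD. The targets NQO1, GCLC, GCLM, TXNRD1, SRXN1 and HMOX1 lie lower in every T47D-TR library than in any T47D library, NFE2L2 and KEAP1 lie higher, and SLC7A11 overlaps.

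NFE2L2 (chromosome 2, 177230303 to 177264727, minus strand) stood at 132, 143 and 128 CPM in T47D-TR replicates 1, 2 and 3 and at 92.9, 95.3 and 99.9 CPM in T47D. Every T47D-TR library was above every T47D library. The means were 134 ± 7.63 CPM in T47D-TR and 96.0 ± 3.57 CPM in T47D (SD, n = 3 each), a log2 fold change of 0.48 ± 0.06 (SE, edgeR adjusted p = 6.19e-06). Of tested genes, 77.7% had a lower log2 fold change than NFE2L2. The GENCODE 29 annotation of the gene overlaps AGPS on the other strand, and without a stated strand setting reads in the overlap cannot be assigned.

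KEAP1 (chromosome 19, 10486125 to 10503356, minus strand) was close to the limit of detection, where T47D-TR libraries had 20, 13 and 20 counts and T47D libraries had 2, 4 and 3. These counts are 0.961 ± 0.269 CPM in T47D-TR and 0.158 ± 0.0485 CPM in T47D, the second of which is at the level of 3 counts. All T47D-TR libraries were above all T47D libraries, and the log2 fold change was 2.54 ± 0.27 (SE, edgeR adjusted p = 0.000279). Summed over the libraries, 53 counts in T47D-TR against 9 in T47D gave a 5.99-fold ratio, with a 95% interval of 2.93 to 13.8 from the exact binomial (Clopper-Pearson) interval, which covers counting error only. KEAP1 passed the filter on low counts only through its T47D-TR libraries, so a gene with its T47D counts had to differ to be tested at all.

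The genes beside KEAP1 were looked at after its counts were seen. On one side PDE4A, a phosphodiesterase gene, had 598, 563 and 546 counts in T47D-TR and 655, 699 and 651 in T47D. CDC37, which encodes a kinase co-chaperone, lay at 5425 to 6305 counts in T47D-TR and 6482 to 7261 in T47D. On the other side S1PR5, a sphingosine phosphate receptor gene, was also low, with 85, 50 and 50 counts in T47D-TR and 5, 1 and 3 in T47D. ATG4D, the autophagy protease gene after it, had 303, 259 and 228 counts in T47D-TR and 385, 380 and 394 in T47D. Low counts were shared by the adjacent genes KEAP1 and S1PR5 and not by the 3 protein-coding genes before them or the 2 after them. Whether the low counts of KEAP1 and S1PR5 have a common cause was not tested.

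**Figure D2:**
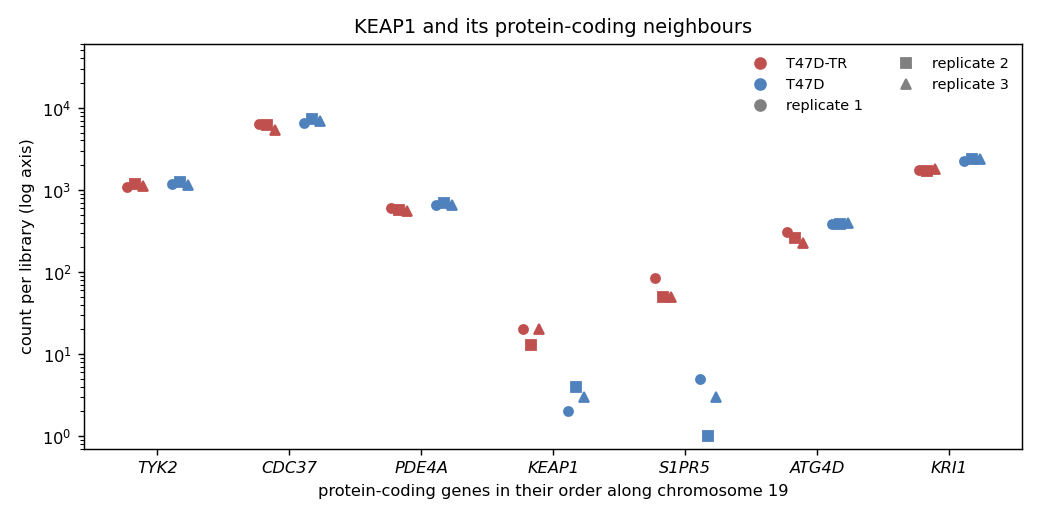
Counts per library (log axis) of KEAP1 and the 3 protein-coding genes on each side of it along chromosome 19, T47D-TR in red and T47D in blue. KEAP1 lies at 13 to 20 counts in T47D-TR and 2 to 4 in T47D, and S1PR5 at 50 to 85 in T47D-TR and 1 to 5 in T47D. The other 5 genes have over 200 counts in each library.

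NQO1 encodes a reductase that turns quinones into hydroquinones and is the most used readout of NRF2 activity. The gene (chromosome 16, 69709401 to 69726560, minus strand) had 398, 399.7 and 478 CPM in T47D-TR and 724, 735 and 743 CPM in T47D. The highest T47D-TR library, replicate 3, was still far below the lowest T47D library. Its mean was 425 ± 46.0 CPM in T47D-TR and 734 ± 9.75 CPM in T47D (SD, n = 3 each), with a log2 fold change of -0.79 ± 0.09 (edgeR adjusted p = 2.97e-07), so the level fell by 42.1%.

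GCLC and GCLM encode the catalytic and the modifier subunit of glutamate-cysteine ligase, the rate-limiting enzyme of glutathione synthesis. GCLC (chromosome 6, 53497341 to 53545101, minus strand) had 128, 125 and 151 CPM in T47D-TR and 185, 182 and 187 CPM in T47D, a log2 fold change of -0.45 ± 0.09 (edgeR adjusted p = 4.94e-05). GCLM (chromosome 1, 93885199 to 93909430, minus strand) had 84.2, 82.2 and 92.3 CPM in T47D-TR and 146, 150.3 and 148 CPM in T47D, a log2 fold change of -0.78 ± 0.05 (edgeR adjusted p = 7.43e-08). Both subunits fell, GCLC by 27.0% and GCLM by 41.8%. The count of GCLC over that of GCLM, a ratio within each library that no scaling touches, was 1.52, 1.53 and 1.64 in T47D-TR and 1.27, 1.21 and 1.26 in T47D. Those ratios do not overlap, and since they were chosen after the values were seen they are given with no test.

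TXNRD1, which encodes the cytosolic selenoprotein that reduces thioredoxin, was the member with the highest counts. The gene (chromosome 12, 104215779 to 104350307, plus strand) had 923, 943 and 977 CPM in T47D-TR and 1449, 1426 and 1433 CPM in T47D. With a log2 fold change of -0.60 ± 0.02 (edgeR adjusted p = 2.30e-08) its level fell by 34.0%, and relative to its mean it varied least between the T47D-TR libraries of the 6 targets that fell, with an SD of 2.89% of the mean against 6.20% to 42.6% for the other 5. The ribosomal pseudogene RPL18AP3 and the gene EID3 lie inside TXNRD1 on the same strand and have counts of their own, 4183 to 4494 in T47D-TR and 4280 to 4696 in T47D for RPL18AP3. SRXN1 encodes sulfiredoxin, which reactivates overoxidized peroxiredoxins. This gene (chromosome 20, 646615 to 653200, minus strand) had 66.1, 63.5 and 82.6 CPM in T47D-TR and 115, 115 and 110.2 CPM in T47D, a log2 fold change of -0.68 ± 0.12 (edgeR adjusted p = 1.14e-05). It fell by 37.7%, and its T47D-TR libraries did not reach the T47D ones.

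HMOX1, the gene of the inducible haem oxygenase that breaks haem into biliverdin, iron and carbon monoxide, changed most among the targets. The gene (chromosome 22, 35381096 to 35394207, plus strand) had 18.2, 13.8 and 31.1 CPM in T47D-TR and 65.6, 66.3 and 67.7 CPM in T47D. Its T47D-TR libraries were spread widely and all lay below T47D. A mean of 21.1 ± 8.97 CPM in T47D-TR stood against 66.5 ± 1.10 CPM in T47D (SD, n = 3 each), a log2 fold change of -1.67 ± 0.34 (edgeR adjusted p = 7.74e-06). Only 1.47% of tested genes had a lower log2 fold change, compared with 6.20% for NQO1 and 6.33% for GCLM.

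SLC7A11, which encodes the light chain of the cystine and glutamate exchanger that supplies cysteine for glutathione, was the target that was not called. The gene (chromosome 4, 138164097 to 138242349, minus strand) had 656, 761 and 837 CPM in T47D-TR and 787, 776 and 741 CPM in T47D. The groups overlapped, with a log2 fold change of -0.03 ± 0.11 (edgeR adjusted p = 0.713). Without T47D-TR replicate 3 the log2 fold change of SLC7A11 was -0.11 and called (edgeR adjusted p = 0.0155), and without T47D-TR replicate 1 its sign turned to 0.057 (edgeR adjusted p = 0.343). SLC3A2, the gene of its heavy chain partner, named after its values were seen, fell with a log2 fold change of -0.54 ± 0.08 (edgeR adjusted p = 4.59e-06). The count of SLC7A11 over that of SLC3A2 was 3.11, 3.33 and 3.33 in T47D-TR and 2.40, 2.25 and 2.24 in T47D. An antisense gene, SLC7A11-AS1, overlaps the locus and had 987 to 1214 counts in T47D-TR and 1080 to 1127 in T47D, and the sources used here do not say how reads of the pair were divided.

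NFE2L2 and 6 of the 7 targets moved in opposite directions. The count of NQO1 over that of NFE2L2 was 3.01, 2.80 and 3.73 in T47D-TR and 7.79, 7.71 and 7.43 in T47D, a difference of -1.28 on the log2 scale. This ratio too was chosen after the values were seen and is a description.

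Per exon length, taken as the union of exons in the GENCODE 29 basic set, TXNRD1 was the highest member in both groups, with 188 ± 5.43 CPM per kb in T47D-TR and 285 ± 2.36 CPM per kb in T47D. NQO1 was next, at 136 ± 14.7 CPM per kb in T47D-TR and 235 ± 3.12 CPM per kb in T47D, then SLC7A11 at 77.9 ± 9.42 CPM per kb in T47D-TR and 79.6 ± 2.48 CPM per kb in T47D. In T47D-TR the level order went on with NFE2L2, SRXN1, GCLC, GCLM, HMOX1 and KEAP1, and in T47D with SRXN1, HMOX1, GCLM, GCLC, NFE2L2 and KEAP1. NFE2L2 was therefore the 4th member in T47D-TR and the 8th in T47D, and HMOX1 the 8th in T47D-TR and the 5th in T47D. Between neighbours in the T47D-TR order, NFE2L2 and SRXN1 overlapped, as did SRXN1 and GCLC, and GCLM and HMOX1. No neighbours overlapped in the T47D order. The lengths come from an annotation that may differ from the one used for counting, which shifts all libraries of a gene alike.

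**Figure D3:**
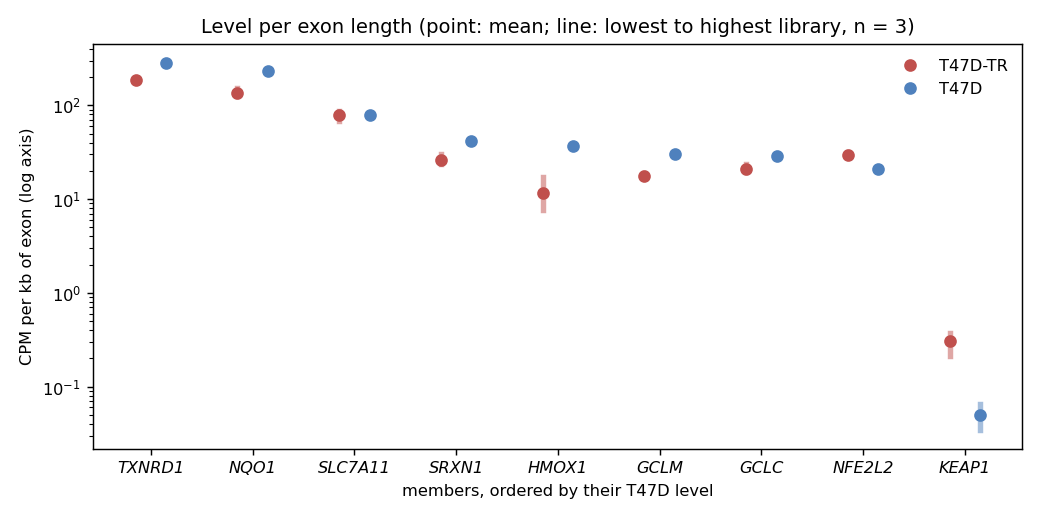
Level of each member in CPM per kb of exon (log axis), with the mean as a point and a line from the lowest to the highest of 3 libraries, T47D-TR in red and T47D in blue. TXNRD1 and NQO1 are highest in both groups, KEAP1 lies at 0.305 CPM per kb in T47D-TR and 0.05 CPM per kb in T47D, and NFE2L2 is higher in T47D-TR than in T47D.

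T47D-TR replicate 3 gave the highest value of its group for all 7 targets, and the lowest for NFE2L2. Replicate 3 was the highest T47D-TR library for 40.1% of all tested genes, and it held most of the COL1A2, COL3A1 and DCN counts given above, whose part in this was not tested. Relative to the mean of replicates 1 and 2 on the log2 CPM scale it was higher by 0.96 for HMOX1, 0.35 for SRXN1, 0.26 for NQO1 and 0.07 for TXNRD1. Without it the log2 fold changes were -2.05 for HMOX1, -0.80 for SRXN1, -0.88 for NQO1 and 0.52 for NFE2L2, each still called.

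Among 25 other genes that control NRF2 or share its binding sites, all tested, 12 fell and 6 rose, 7 missed the threshold, and the median log2 fold change was -0.09. That is 48.0% lower and 24.0% higher, against 30.5% and 32.5% of all tested genes. This list and those below were chosen with earlier results of these data known, so their shares are descriptions. BACH1, the repressor that occupies antioxidant response elements, rose with 970, 1044 and 529 counts in T47D-TR against 431, 485 and 446 in T47D, a log2 fold change of 0.91 ± 0.24 (edgeR adjusted p = 0.000189). MAFF, one of the small MAF partners of both NRF2 and BACH1, rose with 484, 614 and 184 counts in T47D-TR against 69, 54 and 58 in T47D (log2 fold change 2.82 ± 0.48, edgeR adjusted p = 9.30e-06). In T47D-TR replicate 3, where HMOX1 was highest, both BACH1 and MAFF were lowest of the group, as were NFE2L2, MAFG and MAFK. This rests on 1 library, and a link between these levels was not tested. MAFG, another small MAF gene, had a log2 fold change of 0.16 (edgeR adjusted p = 0.0287), a call lost under 6 of 14 alternatives, and MAFK had -0.07 (edgeR adjusted p = 0.551). SQSTM1, whose protein p62 draws KEAP1 into autophagy and which is itself an NRF2 target, fell with a log2 fold change of -0.63 ± 0.14 (edgeR adjusted p = 5.49e-05). CUL3, the cullin of the KEAP1 ligase, fell by 0.34 on the log2 scale (edgeR adjusted p = 0.000355). The related factor gene NFE2L1 stood at -0.09 and was not called (edgeR adjusted p = 0.103), though it was called lower without T47D-TR replicate 3 and with library size alone. PGAM5, a mitochondrial phosphatase bound by KEAP1, fell by 0.72 and AMER1 by 0.71 on the log2 scale, while the chromatin remodeller gene CHD6 rose by 0.45.

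**Figure D4:**
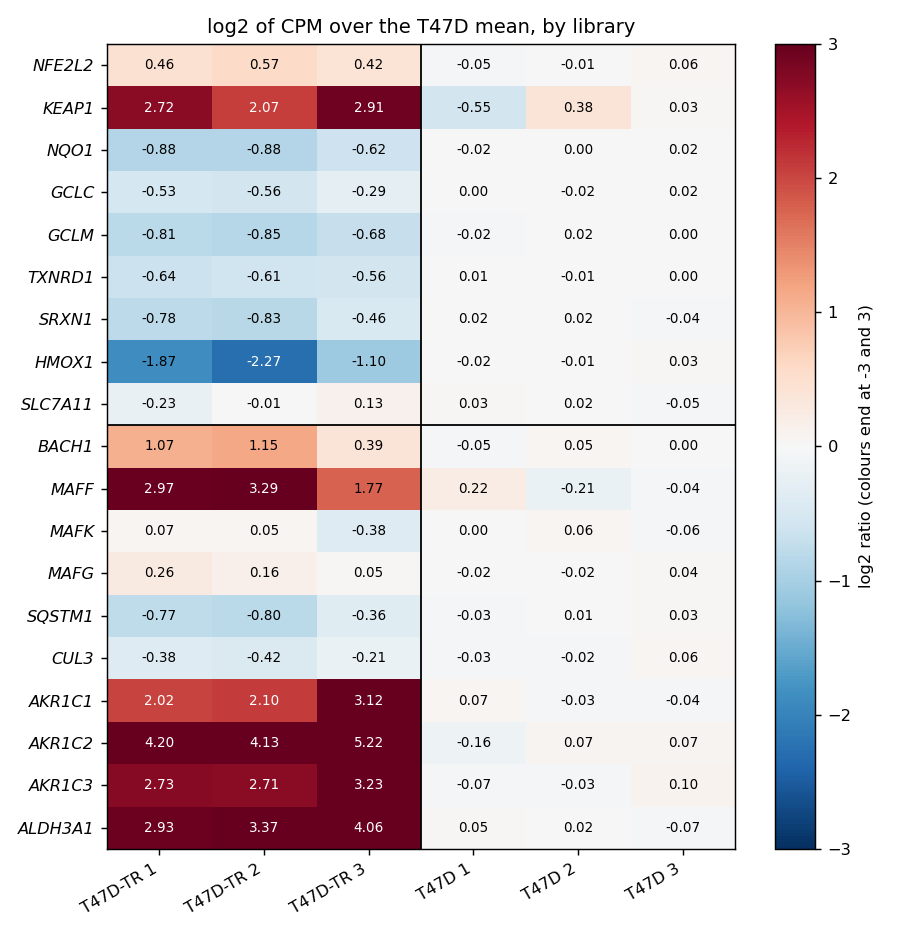
Log2 of the CPM in each library over the mean of the T47D libraries, for the members (above the line) and for regulators and aldehyde or ketone reductase genes (below it), with T47D-TR libraries on the left. HMOX1 runs from -2.27 to -1.10 in T47D-TR, highest in replicate 3, where BACH1 is lowest at 0.39 and AKR1C2 highest at 5.22. A link between these levels was not tested.

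Genes that make or use glutathione were called in both directions about as often as genes at large. Among 34 tested genes 11 rose and 10 fell, 13 missed the threshold, and the median log2 fold change was 0.07. The shares, 32.4% higher and 29.4% lower, were near those of all tested genes, 32.5% and 30.5%. CHAC1, which degrades glutathione, rose by 2.92 on the log2 scale (± 0.15), and the transferase genes GSTM4 and MGST3 by 1.21 and 1.02. GSTP1, the pi-class glutathione transferase gene, fell to 26.2 ± 3.45 CPM in T47D-TR, against 107 ± 2.72 CPM in T47D (log2 fold change -2.02 ± 0.11, edgeR adjusted p = 5.57e-10). GGT1, which starts the breakdown of extracellular glutathione, had a log2 fold change of -1.30, and ESD, an S-formylglutathione hydrolase gene, -0.83. GSTM4 and GGT1 each have near-identical copies, so how their reads were divided is uncertain. GSR, glutathione reductase and a textbook NRF2 target, named after its values were seen, had 78.1 ± 3.0 CPM in T47D-TR and 138 ± 5.94 CPM in T47D (log2 fold change -0.82 ± 0.05, edgeR adjusted p = 4.58e-08).

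In the thioredoxin, peroxiredoxin and superoxide list 12 of 24 tested genes fell and 7 rose, 5 missed the threshold, and the median was -0.24 on the log2 scale. The share called higher, 29.2%, was near the 32.5% of all tested genes, and the share called lower was 50.0% against 30.5%. SESN3, MSRB3 and TXNRD3 fell most, with log2 fold changes of -2.04, -1.39 and -0.69. SESN3 counts were low, at 8, 12 and 15 in T47D-TR against 41, 52 and 55 in T47D. With T47D-TR replicate 1 under the minimum count of 10, SESN3 passed the filter through its T47D libraries. MSRB3 had 69, 53 and 68 counts in T47D-TR against 163, 190 and 157 in T47D. SESN2, a stress-induced sestrin gene, PRDX5 and the catalase gene CAT rose by 1.71, 0.86 and 0.58 on the log2 scale. PRDX1, the abundant cytosolic peroxiredoxin and an NRF2 target, named after its values were seen, fell to 547 ± 40.3 CPM in T47D-TR, against 835 ± 8.92 CPM in T47D (log2 fold change -0.61 ± 0.06, edgeR adjusted p = 3.65e-07). Of 12 genes of NADPH supply, which fuels these reductases, 6 fell and 4 rose, with a median of -0.10, which is 50.0% lower and 33.3% higher against 30.5% and 32.5% of all tested genes. IDH1 and PGLS rose by 0.83 and 0.24 on the log2 scale, whereas RPIA, NNT and PGD had log2 fold changes of -0.81, -0.49 and -0.45.

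A further list of genes induced by NRF2 rose for the most part. There, 19 of 29 tested genes rose and 3 fell, and 7 missed the threshold. These are 65.5% higher and 10.3% lower, against 32.5% and 30.5% of all tested genes. Their median log2 fold change was 0.40, or 0.30 without T47D-TR replicate 3, against 0.00 over all tested genes. The list leaves out the 7 targets among the members and targets placed in other lists, such as SQSTM1, GSR, PRDX1 and FTL. SQSTM1, GSR, PRDX1 and FTL were each called lower, as were 6 of those 7 members. The shares therefore depend on how targets were divided among the lists. The list was also chosen with earlier results of these data known and counts each AKR1C gene, so its shares are a description. AKR1C2 and AKR1C3, aldo-keto reductase genes, rose by 4.61 ± 0.36 and 2.91 ± 0.18 on the log2 scale (edgeR adjusted p = 3.04e-08 and 1.67e-09). AKR1C2 had 4288, 4138 and 7619 counts in T47D-TR and 201, 248 and 237 in T47D. The AKR1C genes are near-identical copies, so how reads were divided among them is uncertain. ALDH3A1, an aldehyde dehydrogenase gene, rose to 50.1 ± 20.2 CPM in T47D-TR, against 4.33 ± 0.181 CPM in T47D (log2 fold change 3.52 ± 0.33, edgeR adjusted p = 1.97e-07). The exporter genes ABCC4 and ABCC5 fell, with log2 fold changes of -0.69 and -0.56, as did OSGIN1 at -0.42 (edgeR adjusted p = 0.0215), whose call was lost under 3 of 14 alternatives. Of the other ABCC exporter genes listed, named after their values were seen, ABCC3 and ABCC2 rose by 1.64 and 0.37 on the log2 scale. ABCC1 was not called (-0.03). Genes known as NRF2 targets lay on both sides: HMOX1, NQO1, GCLM, SRXN1, TXNRD1 and GCLC were lower in T47D-TR and the AKR1C genes and ALDH3A1 were higher. Whether NRF2 controls these genes in these cells was not tested.

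Around HMOX1, haem breakdown and iron storage genes were called at near the shares of all tested genes (32.5% higher, 30.5% lower), with 2 of 6 tested genes higher, 2 lower and 2 not called, and a median of -0.04 on the log2 scale. FTL, the ferritin light chain gene and an NRF2 target, fell to 2126 ± 260.4 CPM in T47D-TR, against 4358 ± 12.3 CPM in T47D (log2 fold change -1.04 ± 0.10, edgeR adjusted p = 4.17e-08). FTH1, the heavy chain gene, named after its values were seen, stood at -0.18 ± 0.15 and was not called (edgeR adjusted p = 0.0988), and under the 14 alternatives it ran from -0.66 with quantile normalization to -0.09 without T47D-TR replicate 1, called lower under 4 of them, 1 of which left out T47D-TR replicate 3 (-0.34). BLVRB, a biliverdin reductase gene, rose by 0.70 and POR, the reductase that passes electrons to haem oxygenase, by 0.34 on the log2 scale, while the constitutive HMOX2 fell by 0.38. Both ferritin genes have many processed pseudogenes, which could take or lend reads.

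**Figure D5:**
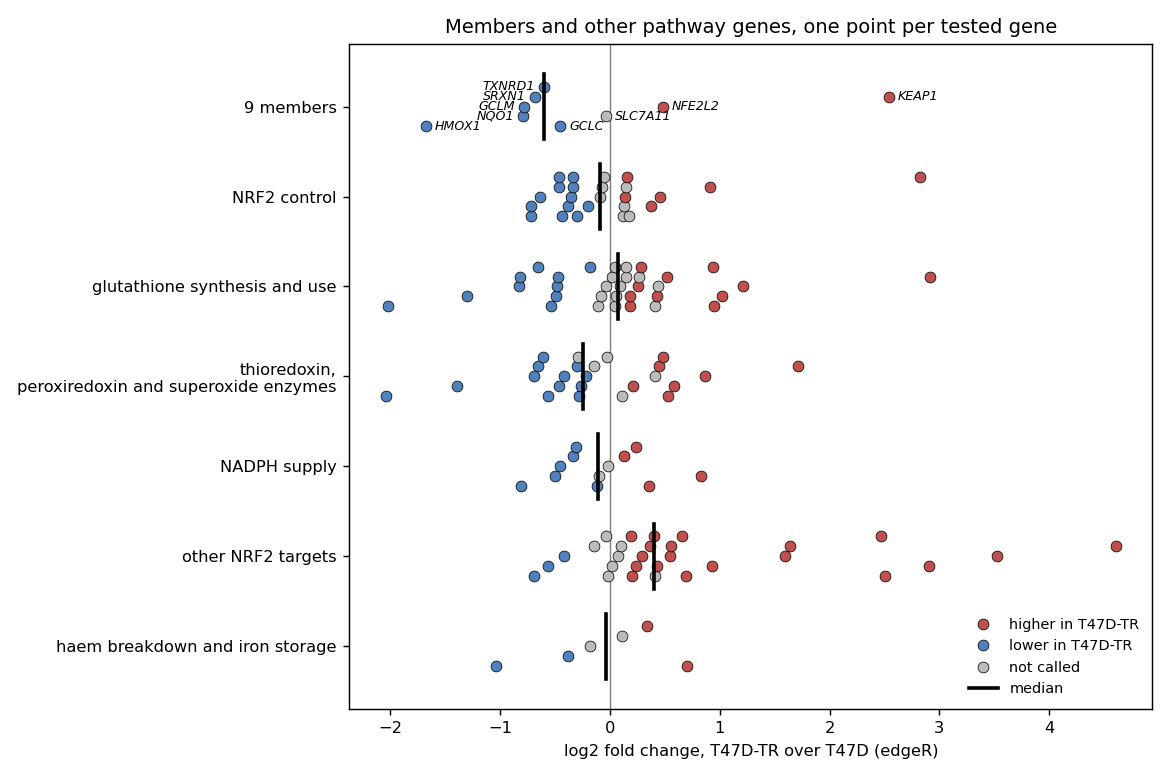
Log2 fold change of T47D-TR over T47D for the 9 members and for the tested genes of 6 lists around them, with the median of each as a black bar and calls at an edgeR adjusted p under 0.05 in colour. The median lies at -0.60 for the members and 0.40 for the other NRF2 targets, whose highest point, AKR1C2, is at 4.61.

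The genes whose profiles over the 6 libraries were most like a member's were named by the root mean square distance between centred log2 CPM values, among 11348 genes. For NQO1 they were FOXRED2 (0.04), GCLM (0.04) and PYCRL (0.05), and for NFE2L2 C6orf120 (0.02), ACSL3 (0.02) and FLYWCH2 (0.03). HMOX1 had no close neighbour, with SCN8A nearest at 0.14, and neither had KEAP1, with PER3 nearest at 0.16. Many genes share a difference between the groups in this comparison, so a short distance is a description of these 6 libraries.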

How the data were processed

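Poly(A) RNA of T47D-TR and T47D was sequenced in 3 libraries each. The submitters' processing notes name HISAT2 2.1.0, the build GRCh38 and DESeq; the counting tool, strand setting and annotation behind the counts are not given there. The authors deposited raw counts per gene and library for 20503 genes, each with at least 1 count. The same deposited table holds the authors' group means as a normalized signal, their fold ratio, its log2 and their p-values with FDR, which were used only as a comparison: among the 9 members in the authors' deposited table, 8 had an FDR under 0.05, and SLC7A11 had a fold of 0.974 with an FDR of 0.816.

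Here, genes were kept with edgeR's filterByExpr (minimum count 10, minimum total 15), which left 15961, scaled by TMM and tested with edgeR 4.0.16's quasi-likelihood test in R 4.3.3, T47D-TR over T47D, with Benjamini-Hochberg adjustment over all genes tested. CPM used the TMM-adjusted sizes. Standard errors use the between-library spread of log2 CPM (prior count 2). The test was tried on simulated counts: when genes were simulated with their own dispersions, the share of false calls was above the nominal rate and above the limit first set for the check, and it met that limit only when dispersions were simulated from the trend, so adjusted p-values near 0.05 deserve caution. Alternatives used DESeq2 1.42.0, limma 3.58.1, other scalings, filters, a replicate block and each library left out.

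The members and lists were chosen with earlier results of these data known. All members were named, and from each of 6 lists up to 3 called genes with the highest and 3 with the lowest fold change whose groups did not overlap, besides 7 fixed regulators; 1 gene that this rule names is not reported here. The ratios of counts and the genes beside KEAP1 were chosen after the values were seen.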

Additional observations from a re-analysis of the deposited data

How the results depend on the processing

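Under the 14 alternatives, all members but SLC7A11 kept their direction and call wherever they could be tested. KEAP1 has no value at a mean CPM of at least 5, which it does not reach. The log2 fold changes ran from 0.44 to 0.52 for NFE2L2, 2.14 to 2.76 for KEAP1, -0.88 to -0.74 for NQO1, -0.54 to -0.40 for GCLC, -0.83 to -0.74 for GCLM, -0.64 to -0.58 for TXNRD1, -0.80 to -0.61 for SRXN1 and -2.05 to -1.44 for HMOX1. With a library left out, the log2 fold change of SLC7A11 ran from -0.11 without T47D-TR replicate 3, where it was called lower (edgeR adjusted p = 0.0155), to 0.057 without T47D-TR replicate 1, where its sign turned (edgeR adjusted p = 0.343). The log2 fold change of MAFK, not called, ran from -0.14 without T47D-TR replicate 1 to 0.057 without T47D-TR replicate 3, where its sign turned (edgeR adjusted p = 0.396). The cause was not tested. Quantile normalization shifted the log2 fold changes of all genes by a median of -0.11. Replicate numbers did not pair the libraries: deviations of same-numbered libraries correlated at -0.01, -0.02 and -0.01, and 0 of 3 T47D-TR libraries correlated best with their own number. With the replicate block 5127 genes were higher and 4827 lower in T47D-TR, against 5186 and 4867 without it. Depth limits KEAP1 most, whose T47D level is that of 3 counts.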
